A study of Mus musculus with 8 samples.

Results

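Stromal cells and pericytes of the mouse kidney were described here as 95 single cells selected on the transcripts of 5 genes, out of 90855 cells that passed limits on quality (0.105%, exact Clopper-Pearson 95% interval 0.0846 to 0.128). A cell was chosen when it held at least 3 counts of *Pdgfrb*, *Col1a1*, *Col1a2*, *Col3a1* and *Dcn* together, from at least 2 of these genes, and at most 1 count in each of 4 sets of genes of other lineages (*C1qa*, *C1qb* and *C1qc* for macrophages, *Flt1* and *Emcn* for endothelium, *Pax5* and *Themis* for lymphocytes, *Slc12a1* and *Lrp2* for tubule). The cells came from male C57BL/6 mice in 7 conditions, namely a control with untouched kidneys, and renal ischemia-reperfusion injury (IRI, in which the vessels of the left kidney are clamped and released) examined at days 1, 7 and 14 in mice given vehicle (DMSO) or entospletinib, an inhibitor of the kinase SYK. Treatment began before IRI and was repeated in the animals kept past day 1, and the age of the mice was not given in the sources used here. The cells of 3 mice made up the single pool of each condition, which was enriched for live leukocytes by fluorescence-activated cell sorting (FACS) on scatter. Stromal cells were therefore a remnant that the sort was not meant to keep, the shares below describe the sorted suspension and not the kidney, and 1 pool per condition allowed no test between conditions.

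Fibroblasts of the kidney lie between tubules and vessels and make the collagens and glycoproteins of the interstitial matrix. Pericytes wrap capillaries, vascular smooth muscle surrounds arterioles, and both carry the receptor PDGFRB, while the related receptor PDGFRA marks fibroblasts. After injury, cells of both kinds are known to take on features of myofibroblasts, which hold contractile proteins and deposit scar matrix.

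Of the rule genes, *Col1a1* (chr11:94936224-94953042) and *Col1a2* (chr6:4504814-4541544) encode the chains of type I collagen, *Col3a1* (chr1:45311538-45349706) encodes type III collagen and *Dcn* (chr10:97479609-97518143) encodes decorin, a proteoglycan that binds collagen fibrils. *Pdgfrb* encodes the PDGF receptor of mural cells. Positions are those of GENCODE vM21 on GRCm38, the assembly of the mm10 build to which the authors aligned. Sequences before an annotated start are shown for *Col1a2* and *Col3a1*, the matched genes of the rule. They are also shown for *Acta2* and *Myl9*, contractile genes whose levels are compared between pools further on. Each line gives the 250 bases before the RefSeq start (GRCm38.p6). Capitals mark any CCAAT box (CCAAT on either strand) in *Col1a2* and *Col3a1*, and any CArG box in *Acta2* and *Myl9*. A CArG box, the element bound by serum response factor, was counted only as an exact CCWWWWWWGG, where W is A or T.
*Col1a2*, chr6:4505368-4505617, plus strand: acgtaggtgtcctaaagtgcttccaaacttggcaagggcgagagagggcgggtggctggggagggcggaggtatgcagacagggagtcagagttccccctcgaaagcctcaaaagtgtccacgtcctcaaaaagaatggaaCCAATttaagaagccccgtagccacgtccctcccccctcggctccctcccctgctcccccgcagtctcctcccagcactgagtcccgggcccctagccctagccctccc
*Col3a1*, chr1:45311288-45311537, plus strand: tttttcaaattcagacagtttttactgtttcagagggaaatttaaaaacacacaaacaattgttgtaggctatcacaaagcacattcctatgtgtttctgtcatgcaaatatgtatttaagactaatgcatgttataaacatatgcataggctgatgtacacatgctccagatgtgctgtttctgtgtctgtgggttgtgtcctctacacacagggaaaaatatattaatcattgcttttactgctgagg
*Acta2*, chr19:34255374-34255623, minus strand: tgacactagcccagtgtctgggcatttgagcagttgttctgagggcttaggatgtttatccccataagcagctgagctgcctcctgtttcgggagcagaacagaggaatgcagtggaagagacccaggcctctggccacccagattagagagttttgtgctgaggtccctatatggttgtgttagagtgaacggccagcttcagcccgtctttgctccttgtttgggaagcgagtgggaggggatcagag
*Myl9*, chr2:156775214-156775463, plus strand: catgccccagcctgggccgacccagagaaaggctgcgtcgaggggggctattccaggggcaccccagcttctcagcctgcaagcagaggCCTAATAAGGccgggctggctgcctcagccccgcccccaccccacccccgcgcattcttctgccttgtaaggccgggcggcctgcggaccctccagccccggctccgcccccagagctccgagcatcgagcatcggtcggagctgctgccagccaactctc

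The CCAAT box of *Col1a2* began 109 bases before the start, and the CArG box of *Myl9* began 161 bases before it. RefSeq and GENCODE starts differ for some genes, so that the *Col1a2* window lies within the GENCODE gene given above and most of the *Acta2* window lies within the *Acta2* gene (chr19:34241090-34255590). No exact match to either motif was found in the windows of *Col3a1* and *Acta2*, which says only that these letters are not in those windows, and sequence before the GENCODE start was not searched. The *Acta2* window holds ccctatatgg and ccttgtttgg, each off the exact CArG pattern by 1 base and so not counted. It is therefore not shown to lack CArG elements. Of 10 contractile genes, 8 had a window in the table and 1 of these (*Myl9*) held a CArG box, and of 12 immediate early genes 10 had a window and 1 (*Zfp36*) held one. Among all 32851 windows of this length, 1.47% held a CArG box and 33.8% a CCAAT box. The matches are a description and were set against no measure of binding.

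Values just inside and just outside the rule show how sharply it divided the cells. Before the 4 limits on other lineages, 153 cells met the gene counts, and 58 of them were removed, 38 by *Flt1* and *Emcn*, 22 by the C1q genes, 4 by *Slc12a1* and *Lrp2* and 3 by *Pax5* and *Themis*, with 8 cells removed by more than 1 limit. Of the 95 cells kept, 7 held exactly 3 rule counts, 56 held more than 10, and 17 held all 5 rule genes. Another 28 cells that passed the lineage limits held 2 rule counts and stayed outside, as did 11 with at least 3 counts of a single rule gene. *Pdgfra* was detected in 1 of the 7 cells at 3 counts and in 0 of the 28 cells at 2 counts, whereas *Ptprc*, the gene of the leukocyte antigen CD45, was detected in 1 of the former and 13 of the latter.

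The 95 cells held 511894 counts, with a median of 5051 counts per cell (752 to 17566) against 2271 over all cells that passed the limits. They were spread over the 8 sublibraries, technical portions of the same barcoded cells, with 9 to 16 cells in each. The combination of barcoding wells of 25 stromal cells also occurred in another sublibrary, and no 2 stromal cells shared one. The median counts per stromal cell were 3189 in control. From the earliest day to the latest they were 5712, 7209.5 and 7036 in the vehicle pools, against 2729, 3836.5 and 2272 in the entospletinib pools. The pool with most cells was thus also among the deepest, and its part in the comparisons below was not tested beyond the thinned values given.

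As a description, genes of at least 200 CPM that were detected in at least 10% of the stromal cells were ordered by their ratio over all other cells. *Col1a1*, *Col3a1* and *Col1a2* of the rule came first, *Pdgfrb* was number 16 and *Dcn*, at 182 CPM, was below the limit. The first 20 also included *Pdgfra*, *Col6a3*, *Col12a1*, *Col5a1*, *Cdh11* (a mesenchymal cadherin), *Mgp* (matrix Gla protein), *Ddr2* (a collagen receptor), *Serping1* (the C1 inhibitor), *Svep1*, *Adamts2* (which trims procollagen), *Tnc* (tenascin-C) and *Lama2* (a laminin chain). *Pdgfra* (chr5:75152292-75198215), which the rule did not use, stood at 412 CPM (counts scaled to an equal total for each sum of cells, exact Poisson 95% interval 358 to 472) in the summed stromal cells and at 0.845 CPM in all other cells. It was detected in 52 of 95 stromal cells (54.7%, median 5051 counts) and in 2 of 6635 endothelial cells found by a like rule (0.0301%, median 2664 counts). Poisson and binomial intervals here and below cover counting error only.
The rest of the 20 were *Lhfp*, *Kcnt2* and *Kcnd2* (potassium channel subunits) and *Ak5*. *Lhfp* was detected in 80 of 95 cells, and *Kcnd2* in 19, all of them from vehicle day 14. Mural genes lay below these 20 and were also far above other cells, with *Rgs5* at 598 against 3.86 CPM and *Myh11* at 469 against 3.96 CPM.

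Leukocyte and endothelial markers were lower in the summed stromal cells than in the cells they mark, whereas podocyte markers were not low throughout. The 4 podocyte markers summed to 164 CPM in stromal cells against 84.1 CPM in other cells, with 84 counts in 15 cells and 756 CPM at vehicle day 1. Several, but not all, of the day 1 ratios and list counts are given further on also without the cluster in which these markers were highest. The 4 genes shared by leukocytes (*Ptprc*, *Cd74*, *Coro1a*, *Laptm5*) summed to 305 CPM against 4737 CPM in other cells, and *Ptprc* alone to 68.4 against 1445 CPM. The 7 endothelial markers summed to 89.9 CPM against 10567 CPM in endothelial cells, a difference that the limit on *Flt1* and *Emcn* helps to set. All 4 mesothelial markers were at 0, as were 3 of 4 Schwann cell markers. *Slc12a3*, the thiazide-sensitive transporter of the distal tubule, held 126 counts, of which 121 lay in 1 cell of vehicle day 14. The leukocyte genes were not spread evenly over the pools. Their level per cell ranged from 0 to 5.0 counts per 10000 in control and from 0 to 33.0 with vehicle at day 14. SYK, the target of the drug, was scarcely measured in these cells. *Syk* held 19 counts in 13 of 95 stromal cells (37.1 CPM against 577 CPM in other cells), and the 7 genes of SYK and its partners summed to 203 CPM against 2989 CPM.

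Stromal cells were most frequent after 14 days with vehicle. They numbered 14 of 11205 cells in control (0.125%, 95% interval 0.0683 to 0.210), 13 of 22489 at day 1 (0.0578%, 0.0308 to 0.0988), 2 of 6110 at day 7 (0.0327%, 0.00396 to 0.118) and 43 of 17261 at day 14 (0.249%, 0.180 to 0.335) with vehicle. With entospletinib they numbered 4 of 14041 at day 1 (0.0285%, 0.00776 to 0.0729), 6 of 7605 at day 7 (0.0789%, 0.0290 to 0.172) and 13 of 12144 at day 14 (0.107%, 0.0570 to 0.183). Vehicle day 14 was the highest pool, and its interval overlapped those of control and, barely, of entospletinib day 14, and lay above those of the other 4 pools.

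**Figure D1:**
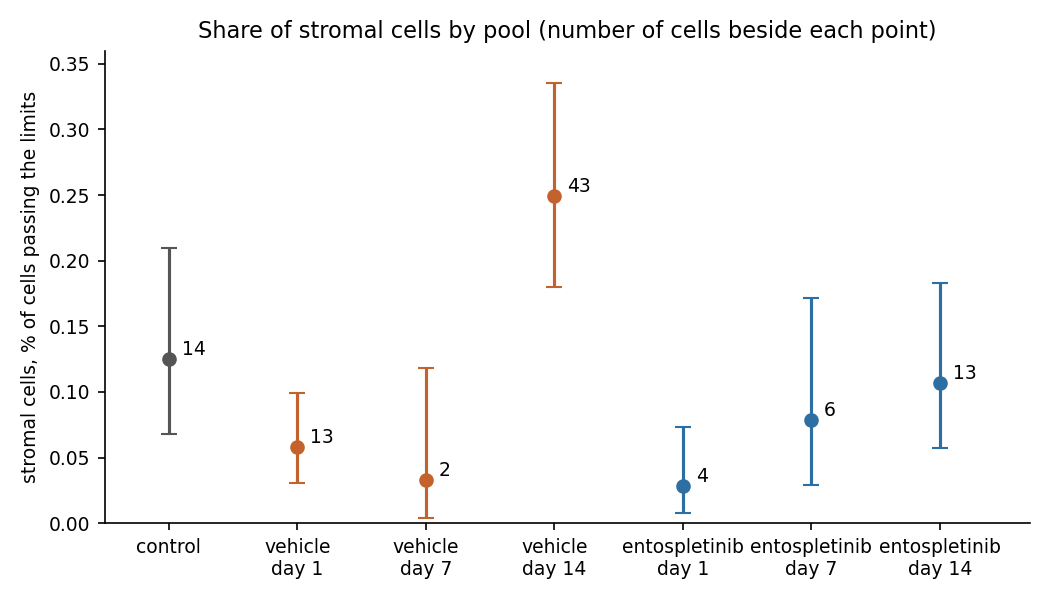
Share of stromal cells among cells passing the limits (y axis, percent) in each of the 7 pools (x axis), with the exact 95% binomial interval as bars and the number of stromal cells beside each point. Vehicle day 14 holds 43 cells and 0.249%, and vehicle day 7 holds 2 cells and 0.0327%.

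On the log2 scale, the share in vehicle day 14 was higher than in control by 1.00 (95% interval 0.10 to 1.98), in 6 of 8 sublibraries. Entospletinib day 14 was lower than vehicle day 14 by a log2 ratio of -1.22 (-2.24 to -0.30), also in 6 of 8 sublibraries. For the remaining comparisons the intervals spanned 0: -1.11 (-2.32 to 0.086) for vehicle day 1 over control (0.65 per endothelial cell), -1.93 (-5.11 to 0.19) for vehicle day 7 over control (0.71 per endothelial cell and 0.30 with cells thinned to 500 counts), -1.02 (-3.09 to 0.67) for entospletinib over vehicle at day 1 and 1.27 (-1.21 to 4.61) at day 7. The treatment ratios were below 0 at days 1 and 14 and above 0 at day 7, where the direction was lost with at least 3 rule genes (-0.32) and per endothelial cell (-1.31). At day 1 the ratio was 0.097 with cells thinned to 500 counts and -1.74 (-3.81 to -0.046) per endothelial cell, where the interval did not span 0. A sign-flip test over 3 pairs of pools could not go below an exact two-sided p of 0.25, so none was run.

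The day 14 ratio over control depended on how strictly cells with transcripts of other lineages were kept out. Under a further limit of at most 1 count over *Ptprc*, *Cd74*, *S100a8*, *S100a9*, *Lyz2* and *Pecam1*, 21 of 43 cells of vehicle day 14 and 0 of 14 control cells were removed, and the log2 ratio became 0.029. Of the 21 removed cells, 11 held more than 1 count of *Cd74*, and the part of depth in their removal was not tested. With every cell thinned to 500 counts it was instead 2.81, with a share of 0.0268% left in control. The share at entospletinib day 14 was below that at vehicle day 14 under the other limits, thinned depths and denominator tried, with log2 ratios from -2.95 (per endothelial cell) to -0.73 (cells of over 500 genes). The latter rests on 12 of 7224 cells against 42 of 15254, and no interval is given for these ratios. Over all cells that passed the limits, median counts were 933 at entospletinib day 14 and 2391 at vehicle day 14. The part of this depth in the ratio was not tested beyond thinning. Set against endothelial cells, whose share was 17.4% in control and 1.55% with vehicle at day 14, there were 0.717 stromal cells per 100 in control, 16.1 at vehicle day 14 and 2.09 at entospletinib day 14. Fewer cells of another type raise such a share, and the gain or loss of stromal cells in the kidney cannot be told apart from what dissociation and the sort let through.

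Over all pools, more cells held *Pdgfra* or mural transcripts alone than held both. Taking *Pdgfra* for fibroblasts and at least 2 counts of *Rgs5*, *Notch3*, *Myh11* and *Acta2* for mural cells, 43 cells had *Pdgfra* alone, 18 had mural counts alone, 9 had both and 25 had neither. *Rgs5* (chr1:169655501-169695813), a regulator of G protein signalling and a marker of pericytes, was found in 17 cells, 3 of which also held *Pdgfra*. In control, 8 of 14 cells had *Pdgfra* alone and 4 had mural counts alone. With vehicle at day 1 the mural cells prevailed, with 6 of 13 against 1 for *Pdgfra* alone, whereas at day 14 there were 26 of 43 with *Pdgfra* alone, 2 with mural counts alone and 5 with both, so that most of the few cells with mural counts in that pool also held *Pdgfra*. With entospletinib at day 14, 5 of 13 had *Pdgfra* alone, 2 had mural counts alone, 1 had both and 5 had neither. The last pool was the shallowest of these, and a cell with neither may hold transcripts that were missed.

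**Figure D2:**
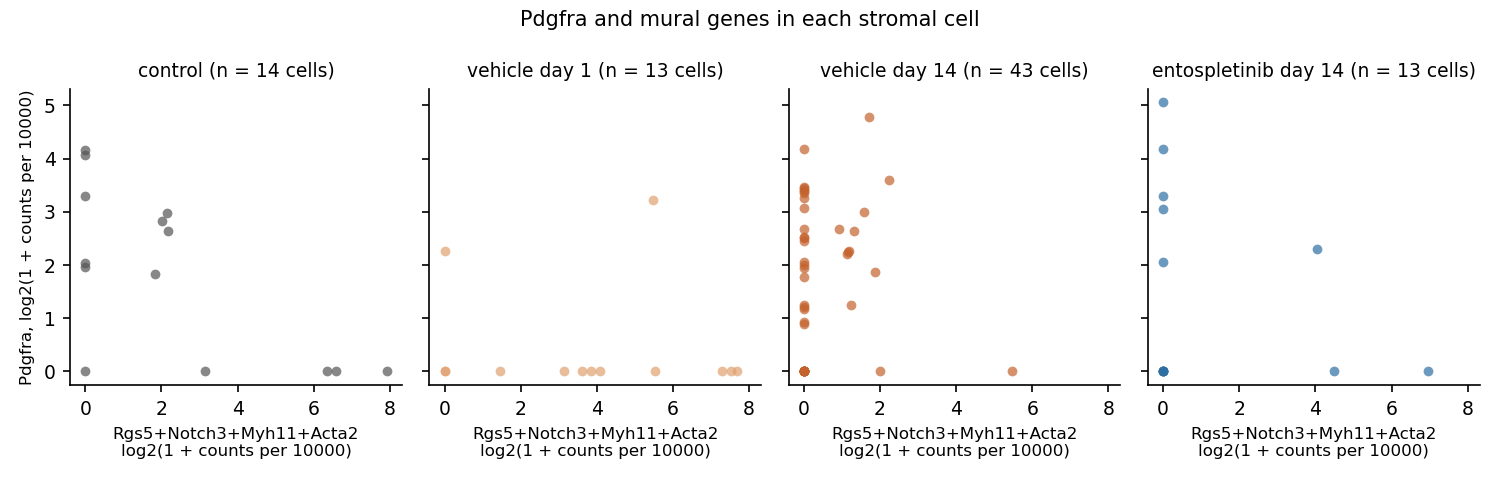
Each point is 1 stromal cell, with log2(1 + counts per 10000) of Rgs5, Notch3, Myh11 and Acta2 together on the x axis and of Pdgfra on the y axis, in the 4 pools with at least 10 stromal cells. Most cells lie along one axis or the other, and the 43 cells of vehicle day 14 lie mostly along the Pdgfra axis.

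Clustering without the rule genes kept all 95 cells in 1 cluster at the resolution set for it (0.5) and divided them into 4 at a resolution of 1. Cluster 0 (32 cells) met the naming rule for pericytes (*Rgs5*, *Notch3*, *Abcc9*) and for smooth muscle (*Acta2*, *Myh11*, *Lmod1*), cluster 2 (22 cells) met it for fibroblasts (*Lum*, *Col14a1*, *Pi16*), and clusters 1 (31 cells) and 3 (10 cells) met none. *Rgs5* was detected in 43.75% of the cells of cluster 0 and *Acta2* in 37.5%. Some of its cells held *Pdgfra* and no mural counts, so cluster 0 was itself a mixture. Cluster 1 was led by *Mmp3* (stromelysin), *Has1* (a hyaluronan synthase), *Ier3* and *Hk2* (a hexokinase). Cluster 3 was led by genes of tubule and developing nephron, *Eya1*, *Pax8* and *Slc12a3* among them, had the podocyte genes *Nphs1* and *Podxl* among its 100 leading genes, and held 1702 CPM of the rule genes against 4748 to 8027 CPM in the other clusters. Its cells met the stromal rule, but their leading genes went against the label, and no cell type is given to them. Different clusters held most cells of the pools, namely cluster 2 in control (10 of 14), cluster 0 in vehicle day 1 (7 of 13) and cluster 1 in vehicle day 14 (25 of 43). No cluster held most of entospletinib day 14, with 5 of 13 cells in cluster 0, 4 in cluster 2 and 2 in each of the others. The values below, treatment ratios included, compare such mixtures of cells.

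For expression, counts were summed over the stromal cells of a pool, and a gene was compared when both pools together held at least 20 counts and their mean was at least 50 CPM. No pair of pools reached the 20 cells each that had been set, so the 3 pairs with at least 10 cells each are given, a limit chosen after the numbers of cells were seen. Values are log2 ratios of CPM relative to the median of compared genes, with exact conditional 95% intervals, and a gene is counted as higher or lower when it passed 2-fold. A gene below 50 CPM in 1 pool was compared only through its level in the other, and most such genes of the lists passed 2-fold, so counts and medians over a list describe the compared genes alone and support no direction of the list. Vehicle day 1 and vehicle day 14 share the control pool, and both comparisons at day 14 share the vehicle pool.

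**Figure D3:**
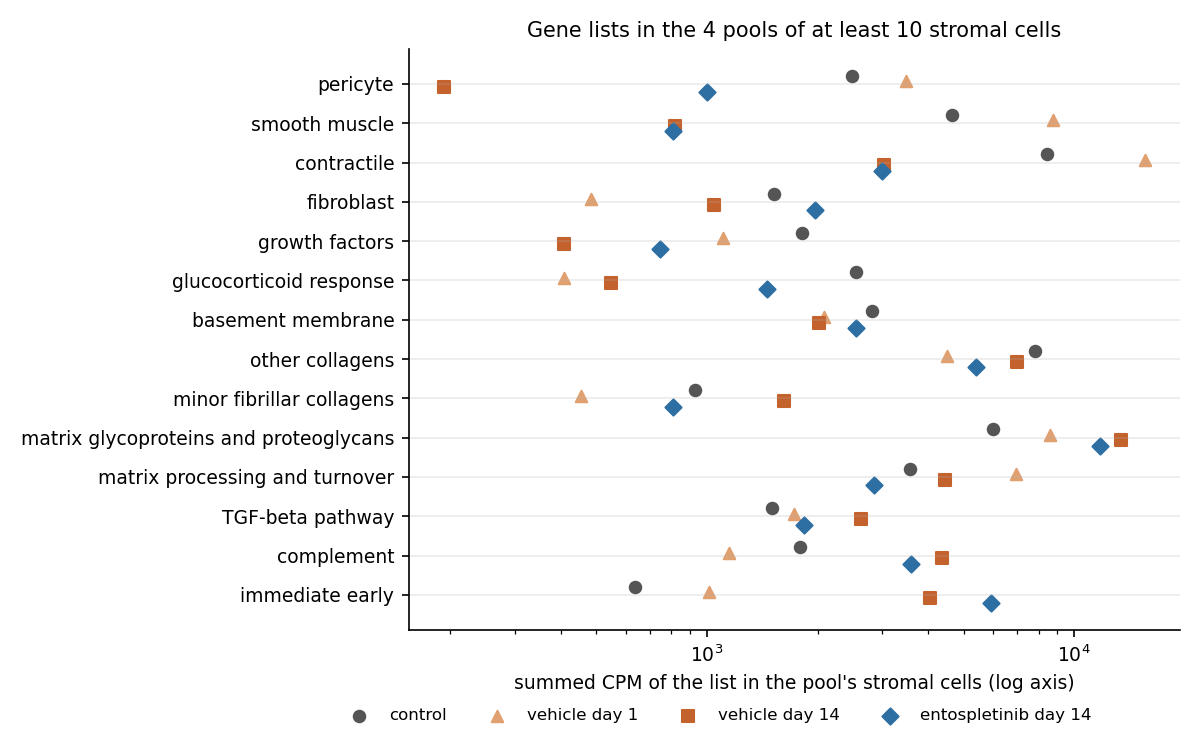
Summed CPM of 14 gene lists (x axis, log scale) in the stromal cells of the 4 pools with at least 10 of them, one symbol per pool and no interval. Contractile genes range from 15557 CPM at vehicle day 1 to 3002 CPM at entospletinib day 14, and immediate early genes from 636 CPM in control to 5940 CPM at entospletinib day 14.

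One day after IRI, the stromal cells of the vehicle pool held more transcripts of the contractile genes *Acta2*, *Tagln* and *Tpm1* than those of control. They held fewer of the fibroblast genes *Pdgfra*, *Col14a1* and *Gsn*. Of 1020 genes compared, 180 (17.6%) were higher and 197 (19.3%) lower by 2-fold. In the contractile list 3 of 9 compared genes were higher and 0 lower, with a median of 0.61 where the median of all compared genes is set to 0. *Acta2*, which encodes smooth muscle actin, held 14 counts in 2 of 14 control cells and 120 counts in 8 of 13 cells at day 1, or 270 and 1814 CPM. Its relative log2 ratio was 2.56 (1.80 to 3.52), and 48 of its counts lay in 1 cell. *Tagln* (chr9:45929619-45936058), encoding the actin-binding protein transgelin, held 6 counts in 3 control cells and 102 in 12 cells at day 1, with a ratio of 3.48 (2.42 to 5.07). *Tpm1* (tropomyosin) was higher by 1.59 (0.99 to 2.27). *Myh11*, the myosin heavy chain of smooth muscle, held 68 counts in 3 control cells and 147 in 4 cells at day 1 (0.61, 0.19 to 1.05) and *Mylk*, the myosin light chain kinase, had -0.24 (-0.60 to 0.11), so the list did not move as one.

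Pericyte markers were mixed at day 1, with 1 of 3 compared genes higher, *Cspg4* (the NG2 proteoglycan) at 2.05 (0.49 to 4.63), and *Rgs5* at 0.32 (-0.07 to 0.71). All 3 compared fibroblast markers were lower, *Pdgfra* by -1.77 (-3.21 to -0.57), *Col14a1* by -2.82 (-4.95 to -1.40) and *Gsn* (gelsolin) by -1.68 (-3.03 to -0.53). *Dcn*, which the rule used and which is given as a description alone, held 27 counts in 5 control cells and 0 at day 1, at least 11.5-fold lower against a floor of 3 counts for the pool. Of the named genes with the largest ratios, *Vim* (the intermediate filament vimentin) was higher by 3.23 (1.80 to 5.77), *Kalrn* (kalirin) by 3.17 (2.27 to 4.40), with 50 of its 120 counts in 1 cell, and *Dst* (the cytoskeletal linker dystonin) by 2.65 (1.62 to 4.11). *Rbfox1*, a splicing factor, held 96 counts in 9 control cells and 0 at day 1 (at least 40.8-fold lower), and 4930578G10Rik held 44 and 0 (at least 18.7-fold lower). *Igfbp3* (51 counts against 1), *Kcnt2* (48 against 1) and *Zbtb16* (91 against 4) were lower by -5.60, -5.51 and -4.84. Of these, *Rbfox1*, 4930578G10Rik, *Igfbp3* and *Kcnt2* were below 50 CPM at day 1. They were compared only through control and support no direction. Clusters 1 and 2 alone held 3 cells of vehicle day 1, with 1294, 935 and 752 counts. There *Dst* was at 0.39, *Vim* at 1.77, *Igfbp3* at -1.01, *Kcnt2* at -1.89, *Zbtb16* at -3.33, *Rbfox1* at -3.47 and 4930578G10Rik at -2.39. *Acta2* was at 5.67 and *Tagln* at 5.19 in the same cells. With so few counts, the 0.5 counts added largely set most of these ratios, *Vim*, *Dst* and *Acta2* among them, and none supports a direction. With each cell given equal weight *Igfbp3* was at -3.30. Without cluster 3, which held 932 CPM of the podocyte markers against at most 48.8 CPM in the other clusters, *Tagln* was at 4.00, *Acta2* at 3.22, *Vim* at 3.05, *Kalrn* at 2.88, *Dst* at 2.06, *Igfbp3* at -4.91, *Kcnt2* at -4.83 and *Zbtb16* at -5.01. All 3 compared fibroblast markers were then again lower, and 6 of 9 compared contractile genes were higher and 0 lower, *Myh11* among them at 1.29.

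Other matrix genes at day 1 went both ways. *Sparc*, a glycoprotein that binds collagen, was higher by 1.40 (0.85 to 2.03), *Thbs1* (thrombospondin 1) by 2.06 (0.68 to 4.18), *Timp3* (an inhibitor of metalloproteinases) by 1.77 (1.39 to 2.18), with 122 of its 314 counts in 1 cell, and *Serpinh1* (the collagen chaperone HSP47) by 1.88 (0.60 to 3.72). Among collagens outside the rule, 5 of 8 in one list were lower and 1 higher, with *Col15a1* at -3.23 (-5.05 to -1.99), *Col4a1* at -1.08 (-1.47 to -0.70) and *Col4a2* at -1.25 (-1.70 to -0.83). The laminin gene *Lama2* was lower by -4.34 (-6.42 to -3.07) and the elastic fibre gene *Fbln5* by -4.22 (-6.30 to -2.95). Without cluster 3, *Timp3* was at 0.67, *Col4a1* at -0.65 and *Col4a2* at -0.76, no longer past 2-fold, and 2 of 7 compared collagens of that list were lower and 1 higher. *Thbs1* was then at 2.57, *Serpinh1* at 2.40, *Lama2* at -4.50 and *Fbln5* at -3.54, and *Wt1* was not compared. With all clusters *Wt1* was at 3.53 (1.47 to 9.45), and 24 counts lay in 3 cells. It was below 50 CPM in control, was compared only through vehicle day 1 and supports no direction. The podocyte genes *Podxl* (18 counts) and *Nphs1* (8 counts) each lay in 1 cell at day 1.

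At day 14 after IRI the vehicle pool held more of the matrix glycoprotein genes *Thbs1* and *Fn1* than control. It held less of the contractile gene *Mylk* (-2.21, -2.56 to -1.86), while *Tagln*, *Tpm1* and *Cald1* did not pass 2-fold. *Tnc*, higher at day 14, and *Myh11* and *Myl9*, lower, were each compared only through the pool with more of them and support no direction. Of 2939 genes compared with control, 503 (17.1%) were higher and 453 (15.4%) lower, or 715 and 266 with trimmed mean (TMM) scaling, which moved every ratio by 0.34. Of the rule genes, which the choice of cells used and which are therefore a description, *Col1a1* held 17 counts in 5 of 14 control cells and 679 in 42 of 43 cells at day 14, or 328 and 2211 CPM. Its relative ratio was 2.77 (2.12 to 3.60), beside 2.17 (1.66 to 2.78) for *Col1a2* and 1.66 (1.16 to 2.25) for *Col3a1*. Per cell, *Col1a1* ranged from 0 to 17.7 counts per 10000 in control (median 0) and from 0 to 86.9 at day 14 (median 20.7), so the ranges overlapped. *Pdgfrb* and *Dcn* went the other way, with -1.23 (-1.75 to -0.66) and -2.14 (-2.90 to -1.36). Counts of these genes chose the cells, so no result is drawn from the split among them.

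Of 18 compared matrix glycoproteins and proteoglycans, which the rule did not use, 11 were higher and 2 lower, with a median of 1.48, and collagens went both ways. Of the 18, 6 were below 50 CPM in control and were compared only through the deeper vehicle pool, and all 6 were higher, while 1 below 50 CPM in the vehicle pool was lower. *Tnc* (chr4:63959785-64047015), a glycoprotein deposited in wounds, held 2 counts in 1 control cell and 520 in 38 cells at day 14 (5.19, 3.65 to 8.56). *Spp1* (osteopontin) held 3 counts in 2 control cells and 554 in 32 cells (4.80, 3.46 to 7.30), of which 212 lay in 1 cell, and *Thbs1* held 4 and 455 counts (4.15, 2.95 to 6.20). *Fn1* (fibronectin) was higher by 1.56 (0.96 to 2.30), *Sparc* by 1.41 (0.91 to 1.99) and *Mgp* by 2.05 (1.25 to 3.13). *Vcan* (versican), which is also on the list of monocyte markers, was higher by 2.63 (1.05 to 6.02), and the leukocyte gene *Cd74* by 1.80 (0.40 to 4.32). Other cells held 2642 CPM of the glycoprotein list against 11817 CPM in stromal cells, and under the wider limit on leukocyte genes 10 of 16 compared genes of the list were higher and 2 lower, *Tnc* at 5.33, *Thbs1* at 4.24 and *Fn1* at 1.55 among them. *Fbln5* was the exception, with 59 counts in 10 control cells and 1 count at day 14 (-7.82, -13.72 to -5.86), and *Ltbp1* was lower by -1.74 (-2.69 to -0.70). Of 10 compared collagens outside the fibrillar chains 3 were higher and 3 lower, with a median of -0.26 (0.072 with TMM scaling), and of 4 compared minor fibrillar collagens 1 was higher and 0 lower, with a median of -0.16 (0.18 with TMM scaling). The fibril-associated collagen gene *Col12a1* (chr9:79598991-79718831) held 5 counts in 2 control cells and 608 in 39 cells (4.28, 3.18 to 6.04), and *Col5a2*, a chain of type V collagen, was higher by 2.62 (1.71 to 3.93), beside -0.28 (-0.86 to 0.40) for *Col5a1* of the same collagen. The basement membrane collagens were lower, *Col4a1* by -1.67 (-1.96 to -1.37) and *Col4a2* by -1.27 (-1.58 to -0.95), and 0 of 7 compared laminins, nidogens and heparan sulfate proteoglycans passed 2-fold in either direction.

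Of 15 compared enzymes and other genes that build and cut this matrix 7 were higher and 3 lower. Of all compared genes 17.1% were higher and 15.4% lower, and the share of lower genes in the list was close to the latter. Of the 7, 2 were compared only through the vehicle pool. Higher were *Adamts2* by 2.40 (1.03 to 4.92), *Lox* (lysyl oxidase, which crosslinks collagen) by 2.50 (0.53 to 8.41), *Serpinh1* by 2.01 (0.88 to 3.79), *Mmp2* by 1.74 (0.49 to 3.81) and *Mmp14* by 1.40 (0.55 to 2.56). *Adamts5* (an aggrecanase) was lower by -3.61 (-4.56 to -2.77). In the TGF-beta pathway, whose ligands drive matrix production, 6 of 12 were higher, where 17.1% of all compared genes were higher. Of these 6, 3 were below 50 CPM in control. Another 2 were lower, close to the 15.4% of all compared genes. The activin subunit *Inhba* held 4 counts in 1 control cell and 229 in 25 cells (3.16, 1.95 to 5.21), the receptor gene *Tgfbr2* was higher by 1.77 (0.52 to 3.84), and the ligand *Tgfb1* held 0 and 39 counts, at least 2.20-fold higher. *Ccn2* (connective tissue growth factor) and the coreceptor gene *Tgfbr3* were lower, by -2.12 (-2.91 to -1.30) and -1.71 (-2.60 to -0.74).

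**Figure D4:**
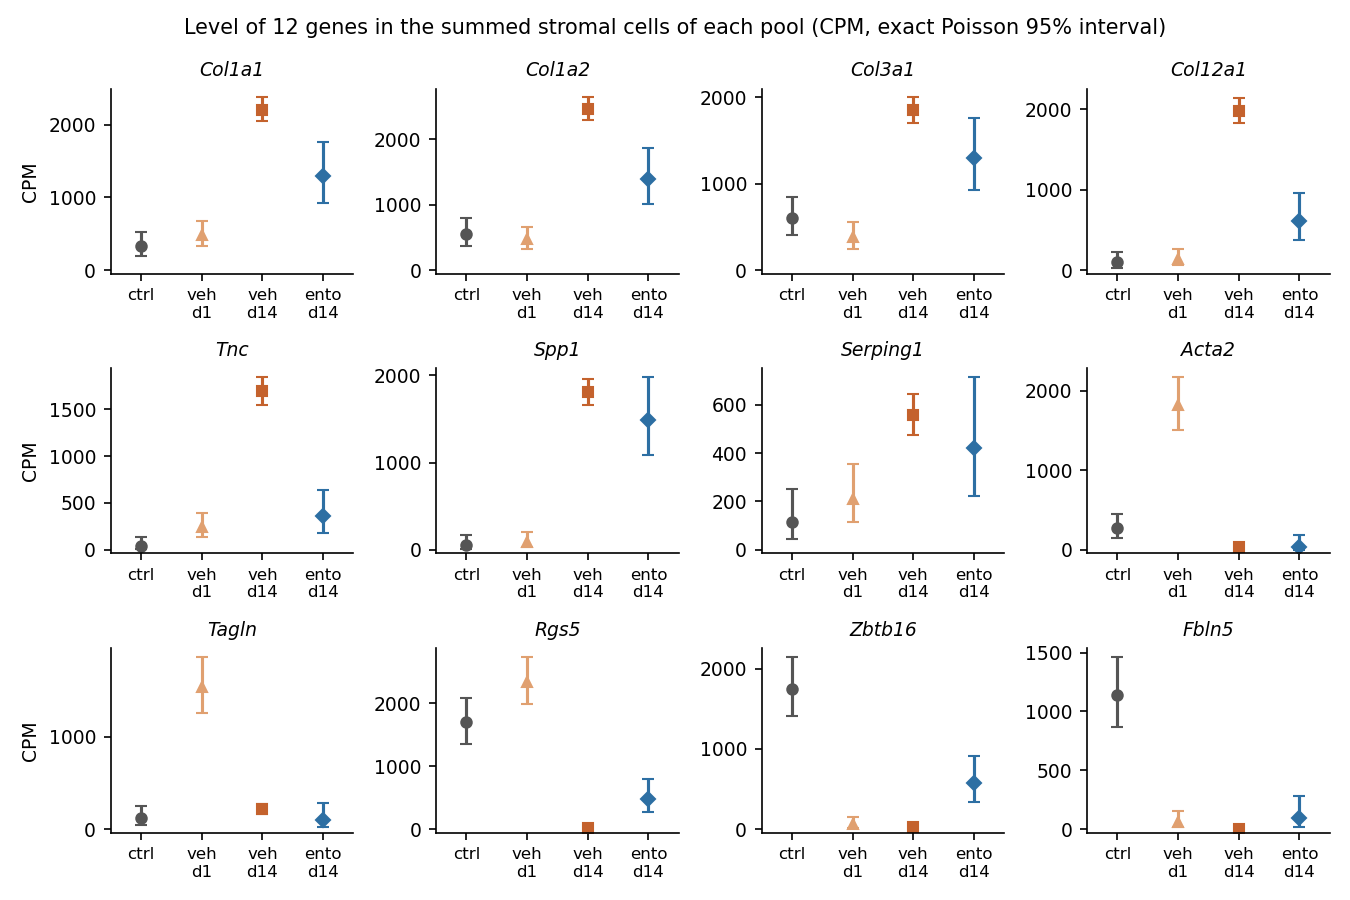
CPM of 12 genes (y axis, linear, own scale per panel) in the summed stromal cells of control (ctrl, 14 cells), vehicle day 1 (veh d1, 13 cells), vehicle day 14 (veh d14, 43 cells) and entospletinib day 14 (ento d14, 13 cells), with exact Poisson 95% intervals for counting error. Matrix genes other than Fbln5 are highest at vehicle day 14, Acta2 and Tagln at vehicle day 1, and Zbtb16 and Fbln5 in control.

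The C1 inhibitor gene, above 50 CPM in both pools, was also higher at vehicle day 14. So was the immediate early gene *Fos*, which passed 50 CPM in control through 1 cell. Its 57.8 CPM there equals the floor of 3 counts for that pool. *Serping1* held 6 counts in 5 control cells and 171 in 36 cells (2.21, 1.17 to 3.79). Of 10 compared immediate early genes, which cells switch on within minutes of a stimulus, 9 were higher and 0 lower, with a median of 2.67, or 2.16 with genes at 0 set to their bound. Of all compared genes 17.1% were higher. Of the 9, 5 were below 50 CPM in control and were compared only through the vehicle pool, and those 5 support no direction. *Egr1*, 1 of those 5, held 2 counts in 2 control cells and 229 in 27 cells (4.01, 2.46 to 7.38). *Fos* held 3 counts in 1 control cell and 207 in 27 cells (3.38, 2.03 to 5.89). Per cell the list ranged from 0 to 115 counts per 10000 in control (median 0.8) and from 0 to 162 at day 14 (median 20.2). Other cells of the suspension held 2857 CPM of this list against 3145 CPM in stromal cells.

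Among mural and smooth muscle genes at vehicle day 14, 2 of 3 compared pericyte markers were lower, with *Cspg4* at 0.83 (-0.63 to 3.38). *Rgs5* held 88 counts in 3 control cells, 72 of them in 1 cell, and 6 counts in 2 cells at day 14 (-6.28, -7.87 to -5.21), *Notch3* held 27 and 7 (-4.39, -5.90 to -3.23), and *Myh11* (chr16:14194535-14291372) held 68 and 5 (-6.15, -7.95 to -4.99), with 55 of its counts in 1 control cell. Of 8 compared contractile genes 5 were lower and 0 higher, where 15.4% of all compared genes were lower and 17.1% higher. Like both pericyte markers, 4 of the 5 were compared only through the control pool and support no direction. *Myl9* was at -3.35 (-4.58 to -2.24) and *Tpm2* at -3.77 (-5.49 to -2.39), while *Tagln* was at 0.86 (-0.23 to 2.47). Among clusters 1 and 2 alone *Myh11*, with 5 counts in the whole vehicle pool, was at 0.85, which rests on few counts. Among growth factors, *Angpt1* (angiopoietin 1, from pericytes to endothelium) was lower at day 14, with 25 counts in 6 control cells and 8 counts in 4 cells (-4.10, -5.52 to -2.96). The chemokine gene *Cxcl12* was lower by -2.91 (-4.35 to -1.56). *Zbtb16* (chr9:48654297-48836222), a transcription factor gene induced by glucocorticoids, held 91 counts in 12 of 14 control cells and 8 counts in 5 of 43 cells (-5.94, -7.27 to -4.98), and *Fkbp5*, another gene of the glucocorticoid list, was lower by -1.23 (-2.20 to -0.09).

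The genes named by size of change at day 14 included several at 0 in control. Each gene so named was below 50 CPM in 1 pool and was compared only through the other, so its direction is a description. *Kcnd2* (chr6:21215503-21729805), a voltage-gated potassium channel gene, held 385 counts in 19 cells of vehicle day 14 and 0 in each of the other 6 pools, at least 21.7-fold higher than control. *Bmpr1b*, a receptor of bone morphogenetic proteins, held 253 counts in 30 cells (at least 14.3-fold), 2610307P16Rik held 236 in 39 cells (at least 13.3-fold), *Serpine2* (protease nexin 1) held 196 in 31 cells and *Sulf1* (an extracellular sulfatase) held 136 in 31 cells (at least 7.66-fold). Lower besides *Fbln5*, *Myh11* and *Zbtb16* were *Dgkb*, with 69 counts in 4 control cells and 3 at day 14 (-6.82, or -2.32 in clusters 1 and 2 alone, with 50 counts in 1 control cell), and *Hsd11b1* (which regenerates active glucocorticoid), with 43 and 4 counts (-5.79, -7.88 to -4.48). Leukocyte transcripts also differed here, *Cd74* by 1.80 (0.40 to 4.32). Under the wider limit on leukocyte genes 362 genes were higher and 307 lower of 1834, and the named genes kept their direction. *Fbln5* was then at -6.89, *Myh11* at -5.88, *Dgkb* at -7.12, *Zbtb16* at -7.52 and *Hsd11b1* at -8.03 (-8.76 in clusters 1 and 2 alone). For genes at 0 in control the ratio fitted with 0.5 counts added was 6.28 for *Kcnd2* (7.08 without that limit) and 5.36 for *Sulf1* (5.58 without it).

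Stromal cells of entospletinib day 14 held less *Tnc*, *Thbs1* and *Col12a1* than those of vehicle day 14 and more *Mgp*. Of 2756 genes compared, 308 (11.2%) were higher and 419 (15.2%) lower. With TMM scaling, which moved every ratio by -0.47, 119 were higher and 834 lower, and with cells under 1.5% ribosomal protein counts 378 and 377. The 13 and 43 cells shared only 5 sublibraries, so no gene could meet the rule for naming by size. Genes of the fixed lists are given, and *Kcnd2*, which was named in the day 14 comparison with control. The rule genes are again a description, since they chose the cells. *Col1a1* held 40 counts in 9 of 13 cells, or 1291 CPM against 2211 CPM (-0.83, -1.34 to -0.39), *Col1a2* was at -0.88 (-1.38 to -0.45) and *Col3a1* at -0.57 (-1.09 to -0.12), and none of the 5 rule genes passed 2-fold. Per cell *Col1a1* ranged from 0 to 31.7 counts per 10000 (median 8.8), within the range of vehicle cells.

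Of 17 compared matrix glycoproteins and proteoglycans 7 were lower and 3 higher with entospletinib, with a median of -0.43. Of the 7, 4 were below 50 CPM in the treated pool and were compared only through the vehicle pool. With TMM scaling 8 were lower and 0 higher. With genes at 0 set to their bound 6 were lower, without *Postn* (periostin, 0 against 33 counts), and the median was -0.34. *Tnc* held 11 counts in 4 cells (-2.26, -3.33 to -1.47), *Thbs1* held 7 counts in 2 cells (-2.68, -4.11 to -1.73), and *Thbs2* held 0 against 70 counts, at least 2.35-fold lower. *Spp1* (-0.34, -0.82 to 0.08) and *Sparc* (-0.23, -0.72 to 0.21) had intervals that spanned 0, and *Mgp* was higher by 1.47 (1.08 to 1.83). Collagens outside the fibrillar chains went both ways, with 2 of 11 higher and 3 lower and a median of 0.21 (-0.26 with TMM scaling), and of 3 minor fibrillar collagens 1 was lower and 0 higher. These counts are too near the 11.2% and 15.2% of all compared genes to be read as results about collagens. *Col12a1* held 19 counts in 3 cells (-1.72, -2.50 to -1.10), *Col5a2* was lower by -1.23 (-2.21 to -0.48) and *Adamts2* by -2.90 (-8.79 to -0.97). Of 13 compared genes of the TGF-beta pathway 5 were lower and 2 higher, with a median of 0.28 (-0.19 with TMM scaling). Of all compared genes 15.2% were lower and 11.2% higher. Of the 5, 2 (*Inhba* and *Tgfb2*) were below 50 CPM in the treated pool and were compared only through the vehicle pool, as was *Adamts2*. *Inhba* held 1 count against 229 (-4.02, -9.91 to -2.11), and *Tgfbr3* was higher by 1.70 (0.46 to 2.73). *Kcnd2* held 0 against 385 counts, at least 12.9-fold lower. It was named for its size in the same vehicle pool and was compared only through that pool, so its direction is a description.

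With entospletinib at day 14, *Rgs5* held 15 counts in 2 cells against 6 in 2 cells (4.49, 3.11 to 6.21). *Zbtb16* held 18 counts in 6 cells against 8 in 5 cells (4.36, 3.14 to 5.82). Both were below 50 CPM in the vehicle pool (19.5 and 26.0 CPM) and were compared only through the treated pool, so they support no direction. *Fkbp5* was higher by 1.70 (0.46 to 2.73), *Col14a1* by 2.39 (1.22 to 3.44) and *Adamts5* by 2.02 (0.45 to 3.30). Of 10 contractile genes 4 were compared, with 1 lower and 0 higher, a share too near the background to be read as a result, and the list summed to 3002 and 3031 CPM. *Myh11*, with 5 counts in each pool and not compared, reached 16.3 CPM in the vehicle pool against 161 CPM in the treated one. Of 12 immediate early genes 4 were higher and 2 lower, against 11.2% and 15.2% of all compared genes, with a median of 0.60, but with TMM scaling 1 was higher and 2 lower, with a median of 0.13. Both lower genes were below 50 CPM in the treated pool, were compared only through the vehicle pool and support no direction. One of them, the nuclear receptor gene *Nr4a3*, held 0 counts against 83 (at least 2.79-fold lower), while *Zfp36* was higher by 1.57 (0.67 to 2.35). *Serping1* was at -0.43 (-1.42 to 0.33).

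The 3 small pools are given by counts alone. *Col1a1* held 44 counts in both cells of vehicle day 7, 32 in all 4 cells of entospletinib day 1 and 22 in 2 of 6 cells of entospletinib day 7. *Pdgfra* was found in 1 of 2, 2 of 4 and 1 of 6 of these cells, and *Rgs5* in 0, 1 and 3. The cell cycle list summed to 38.5 CPM in control, 45.4 CPM at vehicle day 1, 68.4 CPM at vehicle day 14 and 872 CPM at entospletinib day 14 (27 counts). Of its 86 counts, 33 lay in the 2 cells of vehicle day 7. *Mki67*, the proliferation antigen, held 19 counts in 8 of 95 cells, of which 8 counts lay in 1 cell of vehicle day 7 and 7 counts in 3 cells of entospletinib day 14.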

How the data were processed

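Kidney cells of 7 pools of 3 mice were fixed and barcoded by the authors (Parse Evercode) and split over 8 sublibraries. Per the study's methods the authors aligned reads to mm10 with the Parse pipeline (version 1.1), and they deposited a matrix of raw counts for every cell and gene. Matrix totals equalled the deposited cell table for all 120281 barcodes. Each deposited sample holds all conditions, so condition came from the cell table. Kept cells had over 300 genes, under 20000 counts and under 25% mitochondrial counts. The study's limit of 1.5% ribosomal counts was not in the rule and was tried as an alternative. No doublet caller was run, and the lineage limits and their wider form stood in for one.

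Summed counts were divided by their total to give CPM, ratios with 0.5 counts added. Clustering used 20 principal components of 2000 variable genes, 15 neighbours and the Leiden algorithm. Ratios were checked on simulated counts. Named genes were the rule genes, the 20 leading genes, the 5 highest and 5 lowest ratios in a comparison (at least 40 counts, same direction in at least 6 of 8 sublibraries) and members of the fixed lists. Members, lists and tests were chosen with earlier results of these data known, and the minimum of 10 cells, the mural count, the promoters shown and the genes plotted were chosen after values were seen. Software was Python 3.11.15 with leidenalg 0.10.2 and igraph 0.11.9 for clusters, scipy 1.17.1 for intervals, and numpy 2.4.6. Some genes are not reported here.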

Additional observations from a re-analysis of the deposited data

How the results depend on the processing

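Recomputed shares and ratios were set against the 95% counting interval of the value given, which is wide, and recomputed counts against 1.5 times it. Of shares, share ratios and counts 126 lay within and 24 outside, and within it the entospletinib ratio went to -0.32 at day 7 with at least 3 rule genes and to 0.097 at day 1 with 500 counts. Of ratios of named genes 145 lay within, 14 outside and 1 changed direction (*Myh11* at vehicle day 14 over control, 0.85 in clusters 1 and 2 alone). With at least 3 rule genes the share at entospletinib day 7 was 0.0263%. The wider lineage limits left 60 cells, a share of 0.127% at vehicle day 14 and a log2 ratio over control of 0.029. Thinned to 500 counts, 50 cells met the rule, with 0.0268% in control, 0.0133% at vehicle day 1 and 0.0445% at entospletinib day 14, and log2 ratios over control of 0.30 at vehicle day 7 and 2.81 at day 14. Thinned to 1000 counts, the shares were 0.0548% in control, 0.0243% at vehicle day 1 and 0.370% at vehicle day 14, with a ratio of 2.76. Per endothelial cell the log2 ratios were 0.65, 0.71 and 4.49 for vehicle at days 1, 7 and 14 over control, and -1.31 and -2.95 for entospletinib over vehicle at days 7 and 14. A resolution of 1 gave 4 clusters. Leaving out cluster 3 and recounting gene lists under other settings were also chosen after seeing the data. Genes past 2-fold numbered 164 for vehicle day 1 over control in clusters 1 and 2 alone (chosen after seeing the data), 269 for vehicle day 14 over control and 153 for entospletinib over vehicle at day 14 with at least 200 CPM, and 470 for the latter under the wider lineage limits. The limit of 200 CPM left fewer genes to compare, and for the other settings the cause was not tested. No paired analysis was possible because each condition was 1 pool. Gene ratios at day 7 and for entospletinib at day 1 were not run, with 2 to 6 cells in a pool.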
